A study of Homo sapiens with 18 samples.

Results

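The genes described here are 10 regulators of the G1 phase of the cell cycle, out of 58051 genes counted, in the human melanoma cell lines SKMEL2 and SKMEL30. They are the D-type cyclin genes *CCND1*, *CCND2* and *CCND3*, the kinase genes *CDK4* and *CDK6*, the inhibitor genes *CDKN2A*, *CDKN2B*, *CDKN2C* and *CDKN1B*, and the retinoblastoma gene *RB1*. The set was chosen from measured values of these same libraries: the level of each gene in each line and its time course after induction, with the lower *CCND1* level in SKMEL30 at the late time. Levels and time courses of the 10 genes are therefore given as a description. Calls of members are counted beside the share of all genes, and nothing is read from them. Tests are given for other genes of the pathway. The description used to choose the set also named CDK inhibitors as absent, and the counts went against it: all 4 inhibitor genes were expressed in all 18 libraries, and the member near 0 was the cyclin gene *CCND2*.

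Both lines carry a change at codon 61 of *NRAS*, an upstream gene of the mitogen-activated kinase pathway, and both carried the pTRIPZ-PPP2R3B vector, uninduced cells included. The vector was delivered by lentivirus, and stable lines were selected with puromycin. It was turned on by doxycycline and expresses a myc-tagged copy of *PPP2R3B*. That gene encodes PR70, a regulatory subunit of protein phosphatase 2A. In each line 3 libraries came from uninduced cells, 3 from cells induced for 6 h and 3 from cells induced for 18 h as the labels give it; the text of the study gives a shorter late time. No cells given doxycycline without the *PPP2R3B* insert are among the libraries, so doxycycline and the construct cannot be told apart, and the harvest time of uninduced cells is not named. The replicates are named only as such, so p-values measure the spread between these libraries, which may be technical.

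As background, D-type cyclins bind CDK4 and CDK6 when growth signals arrive, and the complexes phosphorylate the retinoblastoma protein. The phosphorylated protein releases E2F transcription factors, which turn on the genes of DNA synthesis. The INK4 proteins encoded by *CDKN2A*, *CDKN2B* and *CDKN2C* bind CDK4 and CDK6 and block this step, while p27, encoded by *CDKN1B*, acts mainly on cyclin E-CDK2 complexes. In melanoma this route is often altered by loss of the *CDKN2A* region on chromosome 9, by gain of *CCND1* on chromosome 11 or by mutation of *CDK4*. *CCND1* transcription follows mitogen signalling, which links it to NRAS.

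Library totals ran from 13402645 to 22383470 counts. The induced gene followed the labels: *PPP2R3B* had a log2 fold change of 4.38 at 6 h and 4.52 at 18 h in SKMEL2, and of 4.69 and 4.88 in SKMEL30, all called. *C21orf91* rose by 1.13 and 1.29 in SKMEL2 and by 1.12 and 1.15 in SKMEL30 on the same scale. The study picked this gene from its RNA sequencing of these lines, so its rise is no separate check of the induction. Called means an adjusted p below 0.05 from edgeR's quasi-likelihood test, with Benjamini-Hochberg adjustment over all genes tested. Melanocytic transcripts such as *MITF* and *PMEL* were abundant in both lines, at group means from 408 to 797 CPM (counts scaled to library size) for *MITF*. *TYRP1* was the exception, at 4.06 CPM in uninduced SKMEL2 against 1282 in uninduced SKMEL30.

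Transcripts of *KRT5* and *KRT14*, markers of basal keratinocytes, stood in some libraries. *KRT5* and *KRT14* together came to 63.9 CPM in SKMEL30 6 h replicate 3, to 10.7 in SKMEL30 18 h replicate 3 and to 5.06 in SKMEL30 6 h replicate 1, while the other 6 SKMEL30 libraries held at most 1.20. In SKMEL2 they came to between 6.90 and 15.0 CPM in 6 libraries, among them all 3 uninduced ones, and to at most 0.831 in the other 3. *EPCAM*, the other epithelial marker listed, held 13 to 24 counts in those 6 SKMEL2 libraries and 19 to 20 in the other 3. In SKMEL30 *EPCAM* held 5 counts in 6 h replicate 3, 2 in 18 h replicate 3 and at most 1 in the rest. Of the 10 markers of other cell types listed, 9 were in the table; their summed level ran from 11.1 to 19.8 CPM in uninduced SKMEL2, 4.43 to 11.3 at 6 h and 5.24 to 17.5 at 18 h, and from 29.8 to 30.7, 30.9 to 95.3 and 34.7 to 41.9 CPM in the same groups of SKMEL30, where the matrix gene *LUM* alone gave 27.5 CPM in uninduced cells. *CD3E* was at 0 in all SKMEL30 libraries and *CDH5* at 0 in all SKMEL2 libraries. Members that moved with the keratins are named where they occur.

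The promoter sequences below show where transcription of the inhibitor genes *CDKN2A* and *CDKN2B* begins, since the value of *CDKN2A* sums transcripts from separate start sites. They show *CDK4* because its promoter carries a repeated E-box. Sequences are the 250 bases before a transcription start in RefSeq on GRCh38.p14, read 5′ to 3′ on the minus strand, on which these 3 genes lie. Capitals mark E-boxes (CACGTG, bound by MYC and MITF among others) and GC boxes (GGGCGG or its reverse complement CCGCCC, bound by SP1). The upstream start of *CDKN2A*, chr9:21995325-21995574, precedes the first exon of p14ARF, a protein that acts on p53. The downstream start, chr9:21974858-21975107, lies 20467 bases away and precedes the first exon of the INK4 protein p16INK4A. *CDKN2B*, at chr9:22009306-22009555, encodes p15INK4B, and *CDK4* is at chr12:57752311-57752560.
CDKN2A upstream start: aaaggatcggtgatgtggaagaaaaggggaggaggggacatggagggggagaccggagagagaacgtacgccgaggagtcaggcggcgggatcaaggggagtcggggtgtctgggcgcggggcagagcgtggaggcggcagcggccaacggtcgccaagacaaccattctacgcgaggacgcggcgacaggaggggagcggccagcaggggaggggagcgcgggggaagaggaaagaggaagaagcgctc
CDKN2A downstream start: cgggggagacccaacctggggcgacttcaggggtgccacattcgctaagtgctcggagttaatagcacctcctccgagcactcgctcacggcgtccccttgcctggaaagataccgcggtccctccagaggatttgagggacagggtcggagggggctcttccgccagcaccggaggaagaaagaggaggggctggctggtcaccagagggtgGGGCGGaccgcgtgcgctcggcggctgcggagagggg
CDKN2B: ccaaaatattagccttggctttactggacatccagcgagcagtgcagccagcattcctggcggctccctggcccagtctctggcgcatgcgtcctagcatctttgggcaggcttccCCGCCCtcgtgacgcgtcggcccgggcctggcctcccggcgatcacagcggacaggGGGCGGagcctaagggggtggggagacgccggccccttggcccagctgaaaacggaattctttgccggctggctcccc
CDK4: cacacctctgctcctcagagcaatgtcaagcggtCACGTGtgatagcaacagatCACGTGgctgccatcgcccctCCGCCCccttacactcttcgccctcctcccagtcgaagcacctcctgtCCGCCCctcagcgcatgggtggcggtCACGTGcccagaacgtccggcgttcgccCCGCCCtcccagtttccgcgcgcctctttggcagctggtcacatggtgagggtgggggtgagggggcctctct

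The *CDK4* window held 3 E-boxes and 3 GC boxes, the *CDKN2B* window 2 GC boxes and the downstream *CDKN2A* window 1. Windows not printed held such sites as well. For *CDKN2C*, separate windows held 1 E-box each and another held 5 GC boxes. A *CCND3* window held 5 GC boxes and a *CDK6* window 3. Over all 35116 promoter records of the same length, 6.34% held an E-box and 42.6% a GC box on either strand. An AP-1 site (TGACTCA, in 4.20% of records), a cyclic AMP element (TGACGTCA, 1.65%) and the E2F sites TTTGGCGC (0.550%) and TTTCGCGC (0.439%) were not among the letters of the records used. Records were found for 8 of the 10 members, and *CCND1* and *CCND2* were not analysed here; the record of *RB1* lies far inside the gene and does not cover its main promoter. A match describes letters only.

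Levels of different genes were compared as CPM per kb of transcript. In uninduced SKMEL2 the order was *CCND1* (196 ± 3.75 CPM per kb, SD, n = 3), *CDK4* (93.8 ± 8.21), *CDK6* (37.8 ± 2.76), *CDKN2A* (26.4 ± 3.28), *RB1* (21.3 ± 0.760), *CDKN2C* (16.4 ± 2.30), *CCND3* (12.03 ± 0.465), *CDKN1B* (11.002 ± 0.866), *CDKN2B* (4.84 ± 0.375) and *CCND2* (0.117 ± 0.0538). Between neighbours in this order only *CCND3* and *CDKN1B* had overlapping libraries. In uninduced SKMEL30 the order was *CCND1* (333 ± 2.60), *CDK4* (115 ± 4.27), *CDKN2A* (51.8 ± 2.07), *RB1* (41.1 ± 0.656), *CCND3* (32.7 ± 0.914), *CDKN2C* (29.7 ± 1.71), *CDKN1B* (16.4 ± 0.281), *CDK6* (9.85 ± 0.358), *CDKN2B* (7.77 ± 0.215) and *CCND2* (0.0153 ± 0.0147), and no neighbours overlapped. Per kb, *CDK6* therefore stood above all but *CCND1* and *CDK4* in SKMEL2, and above only *CDKN2B* and *CCND2* in SKMEL30. The order rests on dividing by 1 canonical length a gene, from 978 bases for *CDKN2A* to 11663 for *CDK6*. Before that division, uninduced SKMEL30 held 115 CPM of *CDK6*, above *CCND3* at 66.3 and *CDKN2A* at 50.7. In uninduced SKMEL2, *CDKN2A*, *CDKN1B* and *CCND3* then held 25.8, 26.5 and 24.4 CPM.

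**Figure D1:**
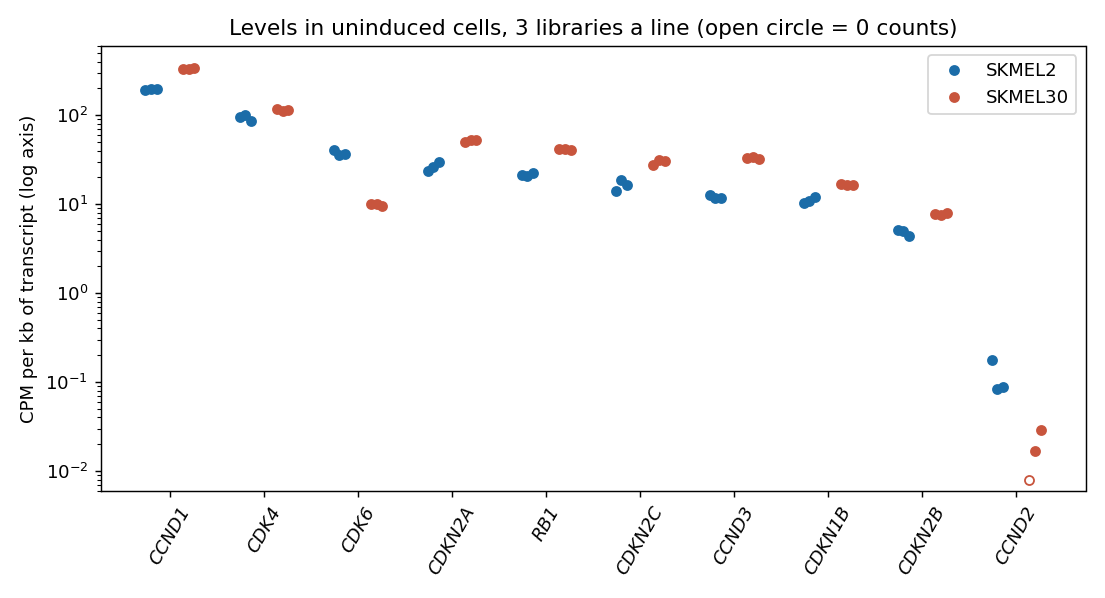
Level of each member in uninduced cells, in CPM per kb of transcript on a log axis, with 1 point for each of the 3 libraries of SKMEL2 (blue) and SKMEL30 (red) and the genes in their SKMEL2 order. *CDK6* is the member with most distance in favour of SKMEL2 among the 9 genes above 1 CPM per kb, and *CCND2* lies far below the rest, with 1 SKMEL30 library at 0 counts drawn as an open circle at the lower edge.

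The level of a gene in the 2 lines is a choice criterion of the set and is described without a test; 75.9% of all 17133 genes tested were called between the uninduced lines. Over all 9 libraries a line, 7 members were higher in every SKMEL30 library than in every SKMEL2 library, 1 was lower and 2 overlapped; of all genes, 29.8% were higher and 32.8% lower in this way. *CCND3* ran from 22.8 to 29.2 CPM in SKMEL2 and from 58.1 to 68.1 CPM in SKMEL30, and its uninduced means differed 2.72-fold. *CDK6* ran the other way, from 305 to 477 CPM in SKMEL2 and from 103 to 124 in SKMEL30, a ratio of 3.84 between the uninduced means. *CDK4* overlapped, at 159 to 212 CPM in SKMEL2 and 200.1 to 222 in SKMEL30. The ratio of *CDK4* to *CDK6* per kb was 2.49 ± 0.302 (SD, n = 3) in uninduced SKMEL2 and 11.6 ± 0.510 in uninduced SKMEL30. Per kb, *CDK4* thus made up most of the transcript for these kinases in both lines, by a wider margin in SKMEL30. In SKMEL2 this rests on dividing by 1 canonical length a gene, 11663 bases for *CDK6* and 1865 for *CDK4*. Before that division, uninduced SKMEL2 held 441 CPM of *CDK6* and 175 of *CDK4*. The transcript forms in use were not analysed.

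Among the D-type cyclins, *CCND1* made up between 92.9% and 94.4% of the summed CPM per kb in the SKMEL2 libraries and between 90.2% and 91.8% in those of SKMEL30. *CCND3*, the one best known from lymphoid cells, supplied nearly all of the remainder, with 8.95% ± 0.255 in uninduced SKMEL30 and 5.79% ± 0.316 in uninduced SKMEL2 (SD, n = 3). *CCND2* was at most 0.0878% of the sum in any library. Both lines thus had a single dominant D-type cyclin transcript at all times sampled.

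*CCND1* (ENSG00000110092, chromosome 11, 69641156 to 69654474 on GRCh38.p14) encodes cyclin D1. In SKMEL30 the uninduced libraries held 1398, 1414 and 1419 CPM, the 6 h libraries 1378, 1410 and 1383, and the 18 h libraries 1206, 1238 and 1253. The 6 h libraries overlapped the uninduced ones, and all 3 libraries at 18 h lay below all of the other 6. At 6 h the log2 fold change from edgeR was -0.02 (SE 0.02). By 18 h the mean was 12.6% lower than in uninduced cells, a log2 fold change of -0.20 (SE 0.02), and 11.4% lower than at 6 h (-0.17, SE 0.02). These 2 late differences are the ones that named *CCND1* in the choice of the set.

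In SKMEL2 *CCND1* was lower at the outset. Uninduced cells held 812, 837 and 841 CPM, cells at 6 h held 759, 721 and 803, and cells at 18 h held 750.4, 734 and 785. All 6 induced libraries lay below the 3 uninduced ones, and the libraries at 6 h and 18 h overlapped. The log2 fold change was -0.12 (SE 0.06) at 6 h and -0.14 (SE 0.06) at 18 h, and the 6 h value was -0.0796 without 6 h replicate 2. Between 6 h and 18 h the value was -0.01 (SE 0.06). The response of *CCND1* in SKMEL30 minus that in SKMEL2 was 0.10 (SE 0.06) at 6 h and -0.06 (SE 0.06) at 18 h on the log2 scale.

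**Figure D2:**
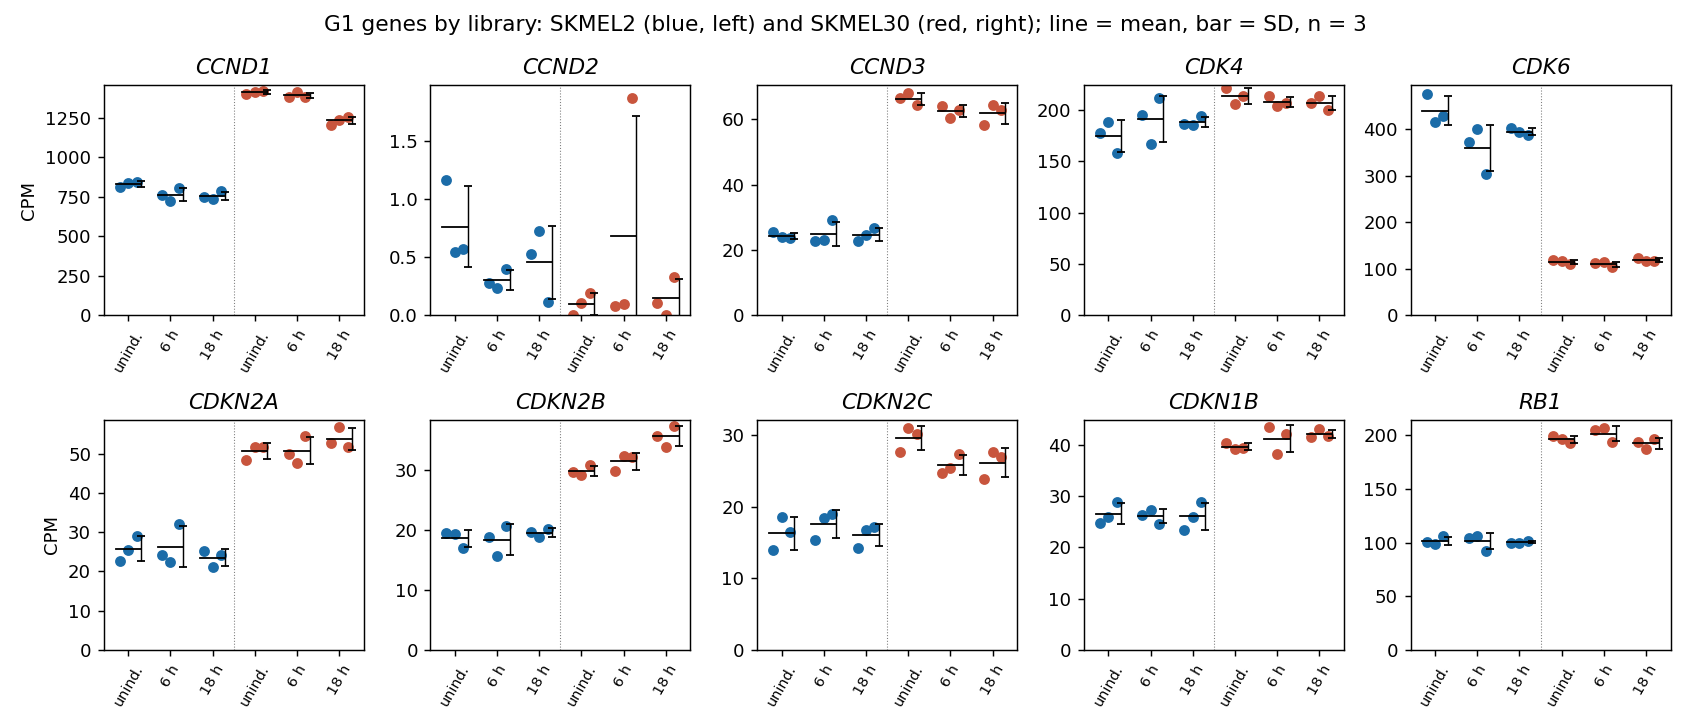
CPM of each of the 10 members in all 18 libraries: points are libraries, lines are means and bars are SD over 3 libraries (cut at 0 for *CCND2*), with SKMEL2 in blue on the left and SKMEL30 in red on the right of each panel and every axis starting at 0. The 18 h points of *CCND1* in SKMEL30 lie between 1206 and 1253, below the other 6 points of the line, and *CCND2* has a single high point of 1.87 CPM in SKMEL30 at 6 h.

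The counts of called members stand here beside the share of all genes, and nothing is read from them, since the time course chose the set. Of the 10 members, 0 were called at 6 h and 0 at 18 h in SKMEL2 by edgeR or by DESeq2, where 0.0124% of all 16120 genes tested were called at either time. At an unadjusted p below 0.05 there were 2 members at 6 h, *CCND2* and *CDK6*, against 3.37% of all genes, and 1 at 18 h, *CCND1*, against 4.65%. Between 6 h and 18 h no member was called by either tool or had an unadjusted p below 0.05, and over all genes 0% were called by edgeR. The median log2 fold change of the members was -0.01 at 6 h and -0.03 at 18 h, beside 0.00 over all genes tested at 6 h. In SKMEL2, 3 members had all 6 h libraries below all uninduced ones (*CCND1*, *CCND2* and *CDK6*), as did 3.61% of all genes, and at 18 h this held for *CCND1* and *CDK6* and for 6.9% of all genes.

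In SKMEL30, 9 of the 10 members passed the filter on low counts; *CCND2* did not. At 6 h none of the 9 was called by edgeR or DESeq2, against 0.206% of all 15026 genes tested, and 1 had an unadjusted p below 0.05, *CDKN2C*, against 6.44% of all genes. The count behind that share, 31 genes, moved with single libraries: it was 17 without 6 h replicate 3, which held most keratin, 16 without uninduced replicate 1 and 20 without uninduced replicate 3. At 18 h 1 of the 9, *CCND1*, was among the called genes (0.293% of all genes), as it was between 18 h and 6 h (0.02%). At an unadjusted p below 0.05 there were 1 higher and 3 lower members at 18 h, against 9.14% of all genes. Between 18 h and 6 h there were 2 higher and 1 lower, against 5.56% of all genes. The alternatives refit the same libraries that named *CCND1* in the choice of the set, so their calls show dependence on settings and are no support. *CCND1* was called at 18 h in 12 of 13 alternatives, the exception being a single fit of all 18 libraries, but between 18 h and 6 h it was called in only 6 of 13. It was not called there in that single fit, in a fit of only the libraries compared, or in 5 of the 6 fits that left out 1 library, those without 18 h replicate 1, 2 or 3 or 6 h replicate 2 or 3. All libraries lay below all uninduced ones for *CCND3* and *CDKN2C* at 6 h (5.83% of all genes) and for *CCND1* and *CDKN2C* at 18 h (8.13%), and above them for *CDKN2B* and *CDKN1B* at 18 h (7.88%). The difference between the lines called 0 of the 10 members at either time by edgeR or DESeq2, among 0% of all 17133 genes at 6 h and 0.00584% at 18 h. One member, *CCND2*, had an unadjusted p below 0.05 in it at 6 h, against 4.91% of all genes.

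**Figure D3:**
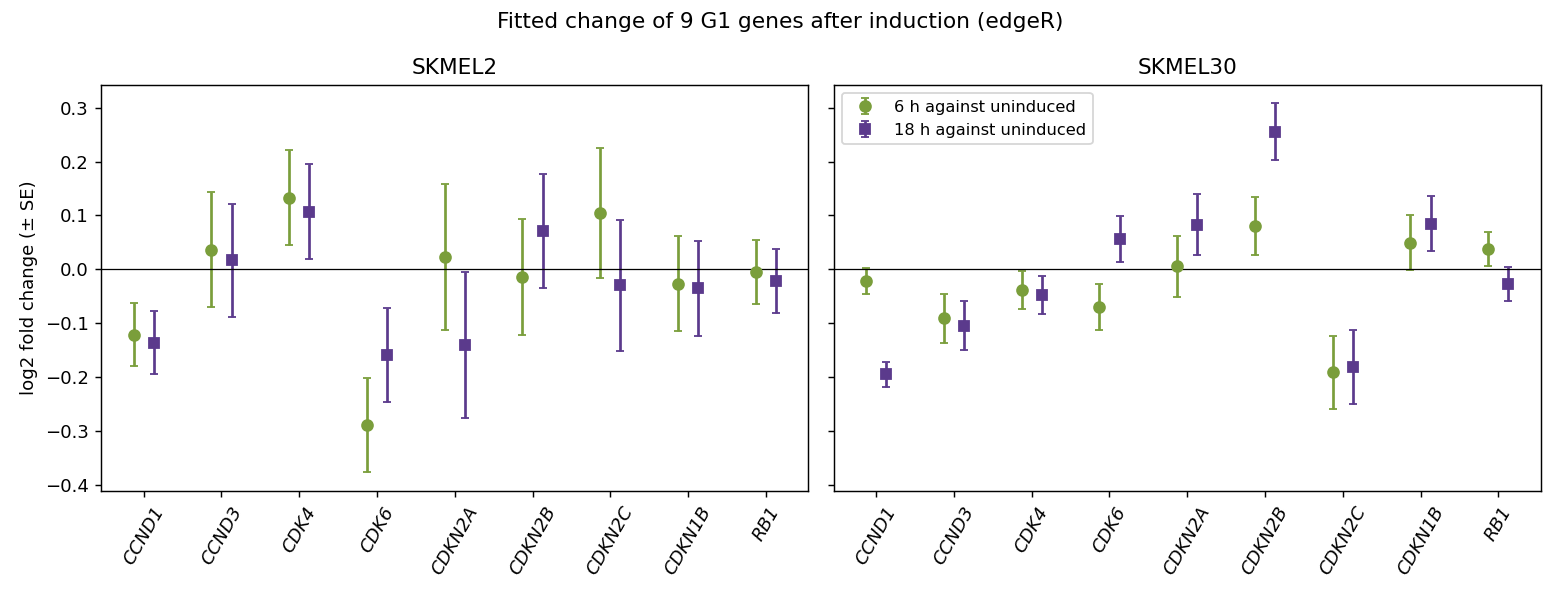
Log2 fold change from edgeR (± SE) of 9 members at 6 h (green circles) and 18 h (purple squares) against uninduced cells, in SKMEL2 on the left and SKMEL30 on the right; *CCND2* is left out because SKMEL30 gave no fitted value for it. Most points lie within 0.2 of 0: *CCND1* in SKMEL30 stands at -0.20 at 18 h beside -0.02 at 6 h, *CDKN2B* there at 0.26, and *CDK6* in SKMEL2 at -0.29 at 6 h.

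*CCND2* (chromosome 12, 4273762 to 4305353), which encodes cyclin D2, was the member close to absence. SKMEL2 held 2 to 20 counts of it in a library and SKMEL30 0 to 40. In SKMEL2 its level went with the keratins: the 6 libraries with keratins above 2 CPM held 0.396 to 1.16 CPM of *CCND2*, and the other 3 held 0.110 to 0.277. In SKMEL30 the ranges overlapped at that level of keratin, with 0.0779 to 1.87 CPM of *CCND2* in the 3 libraries above it and 0 to 0.190 in the 6 below. The library with 63.9 CPM of keratin held the 1.87 CPM, while SKMEL30 6 h replicate 1, with 5.06 CPM of keratin, held 0.0779. Without the libraries at 2 CPM of keratin or more, the SKMEL30 6 h level was 0.1003 CPM in place of a mean of 0.682, and the SKMEL2 18 h level 0.110 in place of 0.453, each from the 1 library that remained. The fitted *CCND2* change in SKMEL2 at 6 h was -1.30 (SE 0.56) on the log2 scale, and -0.891 without uninduced replicate 1, and the difference between lines at 6 h was 4.17 (SE 1.41). The part of the keratin-bearing libraries in these *CCND2* values was not tested.

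**Figure D4:**
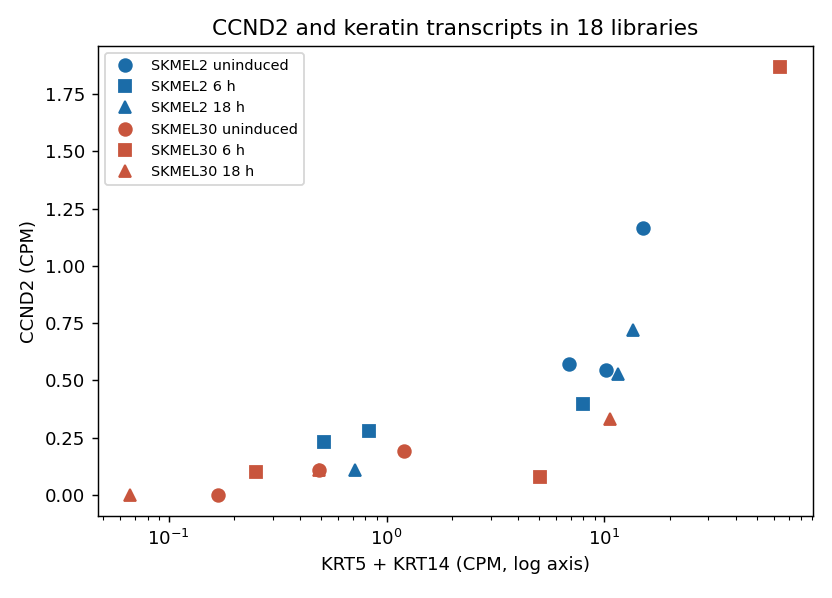
*CCND2* level in CPM against the summed level of *KRT5* and *KRT14* in CPM on a log axis, 1 point for each of 18 libraries, coloured by line (SKMEL2 blue, SKMEL30 red) and shaped by group. The library with most keratin, 63.9 CPM, has the highest *CCND2* at 1.87 CPM, and the SKMEL2 libraries split into 3 with less than 1 CPM of keratin and 6 with more than 6.

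*CCND3* (chromosome 6, 41934933 to 42050035) encodes cyclin D3. In SKMEL30 it stood at 66.5, 68.1 and 64.4 CPM in uninduced cells, 64.0, 60.4 and 62.9 at 6 h and 58.1, 64.4 and 62.9 at 18 h. The 6 h libraries lay just below the uninduced ones, with a log2 fold change of -0.09 (SE 0.05). The late value was -0.11 (SE 0.05), and -0.0606 without 18 h replicate 1. In SKMEL2 *CCND3* held means of 24.4 ± 0.942, 24.96 ± 3.70 and 24.7 ± 2.02 CPM (SD, n = 3) in the 3 groups in order of time.

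*CDK4* (chromosome 12, 57747727 to 57752310) encodes the kinase partner of D-type cyclins in most cells. Its means were 175 ± 15.3, 191 ± 22.4 and 189 ± 4.64 CPM in SKMEL2 and 214 ± 7.96, 208 ± 4.98 and 207 ± 6.97 CPM in SKMEL30 (SD, n = 3, uninduced, 6 h and 18 h), with overlapping libraries throughout each line. *TSPAN31*, a neighbour that overlaps *CDK4* in the annotation, reached at most 612 counts in a library against at least 2745 for *CDK4*.

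*CDK6* (chromosome 7, 92604921 to 92836573), the other kinase that pairs with D-type cyclins, had the largest fitted decrease in SKMEL2 among the members other than *CCND2*. Uninduced cells held 477, 416 and 429 CPM, cells at 6 h 373, 402 and 305, and cells at 18 h 403, 395 and 387. Every induced library was below every uninduced one, with 18.3% less on average at 6 h and 10.3% less at 18 h. The log2 fold change of *CDK6* was -0.29 (SE 0.09) at 6 h and -0.16 (SE 0.09) at 18 h. Leaving out single libraries gave -0.371 to -0.191 at 6 h, the latter without 6 h replicate 3, and -0.201 to -0.0943 at 18 h, the latter without uninduced replicate 1. In SKMEL30 *CDK6* stood at 115 ± 4.18, 109.7 ± 5.73 and 119 ± 3.97 CPM, and the 6 h difference from uninduced cells was -0.07 (SE 0.04). The response in SKMEL30 minus that in SKMEL2 was 0.22 (SE 0.11) at 6 h.

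*CDKN2A* (chromosome 9, 21967752 to 21995324) was present in every library, with 379 to 663 counts in SKMEL2 and 641 to 1170 in SKMEL30. The count adds transcripts of p16INK4A and p14ARF, which start at the 2 *CDKN2A* windows printed above, and the level of each was not analysed here. Group means were 25.8 ± 3.20, 26.3 ± 5.18 and 23.5 ± 2.21 CPM in SKMEL2 and 50.7 ± 2.03, 50.8 ± 3.49 and 53.8 ± 2.76 CPM in SKMEL30 (SD, n = 3), and libraries of the 3 groups overlapped in each line. Its neighbour *MTAP*, which is often lost together with *CDKN2A*, was also expressed, at 178 CPM in uninduced SKMEL2 and 77.0 in uninduced SKMEL30. The antisense transcript *CDKN2B-AS1*, which overlaps both inhibitor genes, reached at most 47.1 counts in a library. Transcript counts do not tell whether the protein was made or intact.

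*CDKN2B* (chromosome 9, 22002903 to 22009313) had the largest positive late value of the members, in SKMEL30. Its libraries there held 29.7, 29.3 and 30.9 CPM uninduced, 29.8, 32.4 and 32.2 at 6 h and 35.7, 34.0 and 37.3 at 18 h, so the late libraries lay above all of the others. At 6 h the log2 fold change was 0.08 (SE 0.05), and at 18 h it was 0.26 (SE 0.05), a mean 19.1% higher. In SKMEL2 the *CDKN2B* means were 18.6 ± 1.44, 18.4 ± 2.59 and 19.6 ± 0.709 CPM, with overlapping libraries.

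*CDKN2C* (chromosome 1, 50960745 to 50974634) encodes p18INK4C. In SKMEL30 it stood at 27.7, 30.9 and 30.1 CPM in uninduced cells, 24.6, 25.4 and 27.4 at 6 h and 23.9, 27.6 and 26.9 at 18 h. Both induced groups lay below the uninduced one, though the gap between the nearest libraries was narrow. The log2 fold change of *CDKN2C* was -0.19 (SE 0.07) at 6 h and -0.18 (SE 0.07) at 18 h, and the latter was -0.118 without 18 h replicate 1. In SKMEL2 its 6 h value had the other sign, at 0.10 (SE 0.12), and the response in SKMEL30 minus that in SKMEL2 was -0.29 (SE 0.14).

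*CDKN1B* (chromosome 12, 12717368 to 12722369) and *RB1* (chromosome 13, 48303751 to 48481890) differed little between the groups of a line in the mean. The p27 transcript had means of 26.5 ± 2.09, 26.0 ± 1.39 and 26.0 ± 2.66 CPM in SKMEL2 and 39.6 ± 0.677, 41.2 ± 2.65 and 42.1 ± 0.790 in SKMEL30 (SD, n = 3), where its 18 h libraries, at 41.5, 42.96 and 41.7 CPM, all lay above the uninduced ones, at 40.4, 39.1 and 39.3, a mean 6.19% higher. *RB1*, the target of the kinases, had means of 102 ± 3.62, 101 ± 7.44 and 100.3 ± 0.831 CPM in SKMEL2 and 196 ± 3.13, 202 ± 7.11 and 193 ± 4.97 CPM in SKMEL30. At 6 h in SKMEL30 the log2 fold changes were 0.05 (SE 0.05) for *CDKN1B* and 0.04 (SE 0.03) for *RB1*.

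Most of the listed genes that E2F factors turn on had slightly lower fitted levels at the late time in both lines, and none passed the test. Of 18 listed targets, among them the replication helicase genes *MCM2* to *MCM7*, *PCNA*, *CCNA2* and *CDK1*, none was called in SKMEL30 at 18 h by edgeR (DESeq2 called 1, *MCM3*). All 18 had a negative fitted value, with a median log2 fold change of -0.11 beside 0.00 over all genes tested, and 12 had an unadjusted p below 0.05, against 9.14% of all genes. *MCM3* held 363, 353 and 365 CPM in uninduced SKMEL30, 355, 353 and 339 at 6 h and 336, 336 and 329 at 18 h. Its log2 fold change was -0.11 (SE 0.03, adjusted p = 0.137), the smallest adjusted p in the list, and that of *CCNA2*, the cyclin of S phase, was -0.14 (SE 0.03, adjusted p = 0.161). *MCM6* (-0.11, SE 0.03, adjusted p = 0.139) and *CDK1* (-0.13, SE 0.03, adjusted p = 0.185) were close to them. At 6 h in SKMEL30 16 of 18 had a negative value with a median of -0.04, and 0 had an unadjusted p below 0.05; no target was called by edgeR or DESeq2.

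In SKMEL2 16 of the 18 targets had a negative value at 18 h, with a median of -0.09 and 1 at an unadjusted p below 0.05 (*MCM3*, -0.13, SE 0.06, adjusted p = 0.987), against 4.65% of all genes. At 6 h only 6 of 18 were negative and the median was 0.03, a count that moved between 3 and 14 as single libraries were left out: it was 3 without uninduced replicate 2, 12 without uninduced replicate 1 and 14 without 6 h replicate 3. In SKMEL30 the 18 h count was 18 with each single library left out in turn. No target was called in SKMEL2 by either tool. The list was put together with earlier results of these data known, and its genes are co-regulated and share the libraries, so its count is a description.

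**Figure D5:**
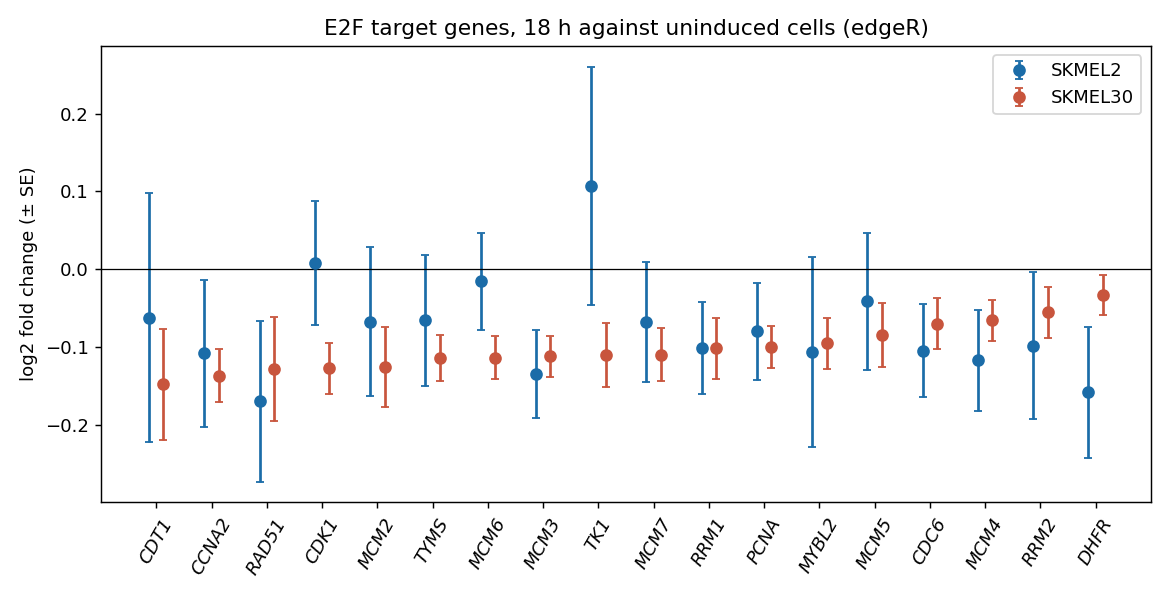
Log2 fold change from edgeR (± SE) of 18 E2F target genes at 18 h against uninduced cells in SKMEL2 (blue) and SKMEL30 (red), ordered by the SKMEL30 value. All 18 red points lie below 0, with a median of -0.11, and 16 of the 18 blue points do, with longer error bars.

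The step between cyclin D and E2F showed no called gene by edgeR or DESeq2. Of the 4 genes for cyclin E, CDK2 and its activating phosphatase CDC25A, 0 had an unadjusted p below 0.05 at either time in SKMEL2 or at 6 h in SKMEL30, and 2 did at 18 h in SKMEL30: *CDC25A* (-0.13, SE 0.05, adjusted p = 0.388) and *CCNE2* (-0.17, SE 0.06, adjusted p = 0.413). Of the 12 pocket protein, E2F and DP genes, 1 did at 18 h in each line, *E2F1* in SKMEL30 (-0.13, SE 0.04, adjusted p = 0.289) and *E2F8* in SKMEL2 (-0.20, SE 0.09, adjusted p = 0.987). Of the 12 genes for assembly, activation and turnover of the cyclin complexes, 1 did at 18 h in each line, *KPNA2* in SKMEL30 (-0.10, SE 0.03, adjusted p = 0.337) and *CKS1B* in SKMEL2 (-0.17, SE 0.07, adjusted p = 0.987). All of the genes named had a negative sign. Over all genes tested, 9.14% had such a p at 18 h in SKMEL30 and 4.65% in SKMEL2. At 6 h the shares were 6.44% and 3.37%. Nothing is read from these few genes.

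The 3 other CDK inhibitor genes had no unadjusted p below 0.05 in either line at either time, and none was called by edgeR or DESeq2. Between the uninduced lines, where 75.9% of all genes were called (6129 higher in SKMEL30 and 6875 lower), all 3 were called: *CDKN1A*, which encodes the p53 target p21, was at 32.7 ± 1.11 CPM in SKMEL30 and 5.59 ± 0.118 in SKMEL2 (log2 fold change 2.55), and *CDKN2D*, which encodes p19INK4D, at 8.31 ± 0.586 and 3.66 ± 0.597. *CDKN1C*, which encodes p57, went the other way, at 3.15 ± 0.680 and 15.0 ± 2.25 (log2 fold change -2.26). Of the 18 E2F targets, 15 were called higher in uninduced SKMEL30 and 2 lower, with a median log2 difference of 0.77 beside -0.05 over all genes; each line is a single culture lineage, so this compares these lines.

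Among 18 genes for factors known to bind the *CCND1* promoter, none was called by edgeR at either time. In SKMEL30 at 6 h 5 of 18 had an unadjusted p below 0.05, all with a negative sign, against 6.44% of all genes. Whether any of these factors acted on *CCND1* was not tested. The AP-1 subunit gene *FOSL2* held 29.96, 27.5 and 27.7 CPM in uninduced cells, 21.4, 24.0 and 23.8 at 6 h and 26.3, 23.8 and 25.4 at 18 h, with no induced library above the lowest uninduced one. Its 6 h log2 fold change was -0.29 (SE 0.06, adjusted p = 0.106 by edgeR), that of *MYC* was -0.14 (SE 0.04, adjusted p = 0.337) and that of the ETS factor gene *ETV5* was -0.09 (SE 0.03, adjusted p = 0.463). At 18 h in SKMEL30 the list went both ways, with 2 of 18 higher and 3 lower at an unadjusted p below 0.05, against 9.14% of all genes. *MYC* was back at 105, 101 and 103 CPM, beside 102, 105 and 103 in uninduced cells and 98.2, 91.2 and 94.1 at 6 h. The 2 higher genes, named after their values were seen, were *EGR1* (0.15, SE 0.05, adjusted p = 0.423) and *LEF1* (0.07, SE 0.03, adjusted p = 0.499). The lower ones were *FOSL2* (-0.17, SE 0.06, adjusted p = 0.384), *ETV5* (-0.08, SE 0.03, adjusted p = 0.382) and *FOSL1*. The last, another AP-1 subunit gene, was at -0.20 (SE 0.05, adjusted p = 0.187 by edgeR) and was called by DESeq2. In SKMEL2 2 of the 18 had an unadjusted p below 0.05 at 6 h, in opposite directions, against 3.37% of all genes. At 18 h 1 did, *LEF1* (-0.19, SE 0.08, adjusted p = 0.987), against 4.65% of all genes.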

How the data were processed

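The authors sequenced poly(A)-selected libraries (KAPA mRNA HyperPrep) and deposited RSEM expected counts per gene (RSEM 1.3.0 on STAR alignments to GRCh38 transcripts); tool versions differ between the study's methods and the submitters' notes. The deposited table held 58051 genes in 18 columns, and 12.3% of values were not whole, so they were rounded. Counts were tested with edgeR 4.0.16 (R 4.3.3; quasi-likelihood test, TMM factors, filterByExpr) over the 9 libraries of a line, or all 18 for comparisons of lines; DESeq2 1.42.0 was an alternative. CPM use TMM factors over 18 libraries, divided by canonical transcript length (the GENCODE annotation) where genes are compared. Replicates differed by more than sampling noise in every group. The scripts were tested on simulated data.

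The members and all lists were chosen with earlier results of these data known. Named were the 10 members, *PPP2R3B* and *C21orf91*, in each other list up to 4 genes a line with the smallest p, chromosome 9 and 11 neighbours by level, and the 5 genes most and least like *CCND1*. Genes that overlap an annotated neighbour may share reads.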

Additional observations from a re-analysis of the deposited data

How the results depend on the processing

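The alternatives refit the libraries that chose *CCND1*, so its values under them are a description. In SKMEL30 these values kept their direction under every alternative run: at 18 h from -0.21 to -0.18 and between 18 h and 6 h from -0.19 to -0.16 as single libraries were left out. Between 18 h and 6 h *CCND1* was nonetheless called in only 6 of 13 alternatives. In SKMEL2 its value between 18 h and 6 h, -0.01, turned to 0.00283 without 18 h replicate 2 and 0.0347 without 6 h replicate 3, in a range from -0.0569 to 0.0347. Of 180 alternative values of member log2 fold changes, 178 kept their sign, and 175 lay within 1 SD of the replicates. All RLE-scaled member levels lay within 1 SD.

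Counts of called genes depended on the settings. With no filter on low counts they were 158, 168 and 135 in SKMEL2 (6 h, 18 h, 18 h against 6 h), 321, 359 and 197 in SKMEL30, and 237 and 216 for the difference between lines at 6 h and 18 h. DESeq2 called 8, 9 and 5 genes in SKMEL2, 68 in SKMEL30 at 18 h, 10 between its late and early times and 3 in the 18 h difference. A single fit of all 18 libraries called 6 and 7 in SKMEL2 and 5, 9 and 0 in SKMEL30. Fitting only the libraries compared called 9 in SKMEL2 at 18 h and 0 in SKMEL30 between times, and a minimum of 10 counts called 5 there. Same-numbered libraries correlated above 0.1 in 6 of 9 pairs a line. Whether the numbers pair the libraries was not tested, since different-numbered libraries were not compared in this way. With the replicate number as a block, 7 genes were called in SKMEL2 at 18 h and 16 in SKMEL30 between 18 h and 6 h. The block changed no member's call. Leaving out single libraries gave 2 to 5, 2 to 2 and 0 to 1 genes in SKMEL2, 16 to 33, 25 to 30 and 0 to 5 in SKMEL30, 0 to 1 and 1 to 2 for the differences, and 12557 to 12759 between lines. In SKMEL30 the counts at 6 h were 16, 20 and 17 without uninduced replicates 1 and 3 and 6 h replicate 3; at 18 h 27, 25, 29 and 29 without 18 h replicate 3 and uninduced replicates 1, 2 and 3; and between times 0 without 18 h replicate 2, 18 h replicate 3 or 6 h replicate 3, and 5 without 6 h replicate 1. In SKMEL2 5 were called at 6 h without 6 h replicate 3 and 1 between times without 6 h replicate 2. The cause was not tested. Replicates of SKMEL2 varied more (coefficient of variation between replicates from edgeR's common dispersion 8.36%, against 4.11% for SKMEL30), so small changes were harder to detect in SKMEL2. This variation may be technical. *CCND2* rested on 0 to 40 counts a library.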

Other observations

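Over the 9 SKMEL30 libraries, the genes whose log2 CPM was most like that of *CCND1*, among 9455 genes with a mean of at least 10 CPM, were *YWHAH* (Pearson r = 0.985), *SLC25A24* (0.952), *NEIL3* (0.952), *COL5A2* (0.949) and *IMPACT* (0.942). The genes with the lowest values were *UBE2V2* (-0.965), *CTNND1* (-0.957), *CDH1* (-0.953), *MFSD6* (-0.940) and *GM2A* (-0.936). These libraries fall into 3 groups and share the induction, so the values describe a pattern and carry no p. Over the 9 SKMEL2 libraries *YWHAH* had r = 0.812, and the other 4 of the highest genes ran from -0.303 to 0.174. Of the lowest genes, *MFSD6* had -0.634 and *GM2A* -0.387 there, while *UBE2V2*, *CTNND1* and *CDH1* ran from -0.0684 to 0.0860.

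Around *CCND1* on chromosome 11, *FGF3* and *FGF19* were at 0 counts in all 18 libraries and *FGF4* in all but 1. *CTTN* (904 CPM in uninduced SKMEL2 and 872 in uninduced SKMEL30), *PPFIA1* (393 and 574) and *FADD* (91.6 and 65.5) were expressed in both lines. Other neighbours differed more: *TPCN2* ran from 10.1 to 11.5 CPM in uninduced SKMEL2 and from 50.3 to 56.5 in uninduced SKMEL30. *MYEOV* went the other way, from 17.1 to 19.9 CPM in uninduced SKMEL2 and from 1.75 to 2.21 in uninduced SKMEL30. Around *CDKN2A* on chromosome 9, *FOCAD* (41.5 and 23.5 CPM) and *KLHL9* (69.5 and 54.2) were expressed in both lines as well, while *LINC01239* stood at 9.32 CPM in uninduced SKMEL2 and 0.245 in uninduced SKMEL30.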
